A study of Mus musculus with 6 samples.

Results

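The regions described here are stretches of open chromatin that lay in no protein-coding gene and between 10 kb and 100 kb from the nearest transcription start site (TSS) of a protein-coding gene. Peaks of all 6 libraries were merged where they shared 1 bp or more, and regions with a peak in at least 2 of the 6 peak lists were kept. Of the 140360 regions kept, out of 185015 before that limit, 26572 (18.9%) met the rule by their midpoint in the GENCODE vM21 annotation of mm10. They are called intergenic regions below. No measured height entered the rule, only the presence of peaks and their positions.

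The assay was ATAC-seq (Tn5 transposase inserts adapters into DNA that nucleosomes leave exposed) on astrocyte nuclei from primary visual cortex (V1) of mice at P21. All mice carried 2 floxed copies of the glucocorticoid receptor (GR) gene *Nr3c1* (GRfl/fl) and received an AAV2/5 at P0 to P1. The virus placed Cre (for GR-KO) or ΔCre, a Cre that does not recombine (for GR-con), under the GfaABC1D promoter, joined through T2A to EGFP-KASH and followed by 4x6T. There were 3 libraries per condition, each from 50000 sorted DRAQ5+/GFP+ nuclei of V1 tissue pooled from 3 to 4 mice, so the spread between libraries is a spread between pools. GfaABC1D is a short promoter derived from the human *GFAP* gene, and the sort keeps nuclei that express the vector, so the libraries describe transduced cells only.

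GR is a nuclear receptor that enters the nucleus when it binds cortisol or corticosterone and attaches to DNA as a dimer. Each receptor of the dimer contacts one arm of a palindromic response element whose arms are separated by a short spacer. Most such elements lie outside promoters, in introns and between genes, where they act as enhancers over distances of many kilobases. Enhancers between genes are also where cell types differ most in their accessible chromatin. The gene nearest to an enhancer is not always the gene it acts on, so nearest genes serve below as names of places.

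The DNA of 10 regions that differed between conditions is shown, chosen so that the motifs searched can be seen in place. Most regions lower in GR-KO did not hold the GR motif, so the choice is not typical of them. The first set of sequences is from 7 regions that were lower in GR-KO. The first 5 are those of smallest p that held the GR motif, the sixth had peaks in GR-con alone, and the last had a half-site only. Each is the plus strand of mm10, 100 bp to each side of the summit of the strongest peak. Capitals mark the GR motif, written GNACANNNTGTNC, and its half-site AGAACA on either strand.

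Fam180a chr6:35349902-35350102: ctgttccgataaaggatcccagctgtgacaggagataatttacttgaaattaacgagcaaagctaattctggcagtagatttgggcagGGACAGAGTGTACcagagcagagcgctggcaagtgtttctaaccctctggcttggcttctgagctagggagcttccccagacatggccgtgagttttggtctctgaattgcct
Setmar chr6:108093576-108093776: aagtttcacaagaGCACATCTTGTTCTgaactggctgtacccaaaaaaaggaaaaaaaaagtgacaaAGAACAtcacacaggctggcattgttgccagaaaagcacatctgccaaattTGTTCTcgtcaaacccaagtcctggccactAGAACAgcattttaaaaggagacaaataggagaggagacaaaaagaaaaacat
Hemk1 chr9:107323672-107323872: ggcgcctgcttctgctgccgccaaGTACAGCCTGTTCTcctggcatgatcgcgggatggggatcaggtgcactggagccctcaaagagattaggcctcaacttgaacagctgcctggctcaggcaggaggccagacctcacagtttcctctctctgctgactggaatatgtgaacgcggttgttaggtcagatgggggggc
AU015836 chrX:94012577-94012777: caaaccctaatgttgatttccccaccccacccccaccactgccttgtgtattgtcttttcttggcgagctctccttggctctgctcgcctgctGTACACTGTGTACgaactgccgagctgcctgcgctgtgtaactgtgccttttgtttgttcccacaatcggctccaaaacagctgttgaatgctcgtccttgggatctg
Adra2a chr19:54143154-54143354: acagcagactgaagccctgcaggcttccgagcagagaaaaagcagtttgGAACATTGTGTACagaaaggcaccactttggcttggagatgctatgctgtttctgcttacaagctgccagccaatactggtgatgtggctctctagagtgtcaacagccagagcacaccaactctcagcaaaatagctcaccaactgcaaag
Gmnc chr16:26901530-26901730: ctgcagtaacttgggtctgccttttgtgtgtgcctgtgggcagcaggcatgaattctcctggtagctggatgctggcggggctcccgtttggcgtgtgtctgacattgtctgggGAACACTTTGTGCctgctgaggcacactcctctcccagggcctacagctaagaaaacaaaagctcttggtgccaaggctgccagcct
Ncam1 chr9:49879845-49880045: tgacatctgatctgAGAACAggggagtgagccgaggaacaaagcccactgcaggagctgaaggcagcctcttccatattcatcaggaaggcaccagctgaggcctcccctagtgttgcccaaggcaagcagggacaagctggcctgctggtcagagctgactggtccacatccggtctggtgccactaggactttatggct

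In the order printed, the motif centre lay at -6, -81, -70, -1, -45 and 20 bp from the summit in the 6 regions that held it. Near *Adra2a*, which encodes the alpha-2A adrenergic receptor, the motif read GAACATTGTGTAC. In the region near *Setmar*, which encodes a histone methyltransferase, 4 half-sites stood in the same window as the motif. The second set is from 3 regions that were higher in GR-KO, none of which held the GR motif. Here capitals mark TAATTA (the core bound by LIM homeodomain factors), the CTCF core CCANNAGNNGGC, and ACTGTA, a word taken from earlier results of these data. The half-site is not marked in this set.

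Tdpoz5 chr3:93987471-93987671: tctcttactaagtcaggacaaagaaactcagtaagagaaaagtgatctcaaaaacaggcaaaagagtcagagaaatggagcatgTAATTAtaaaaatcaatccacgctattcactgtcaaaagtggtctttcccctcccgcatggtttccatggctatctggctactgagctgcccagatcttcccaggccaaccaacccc
Fbxw11 chr11:32625778-32625978: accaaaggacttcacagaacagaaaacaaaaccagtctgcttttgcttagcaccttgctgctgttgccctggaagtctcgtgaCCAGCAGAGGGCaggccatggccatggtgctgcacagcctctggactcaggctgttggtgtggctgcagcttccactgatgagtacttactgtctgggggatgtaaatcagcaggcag
Hspa4 chr11:53249767-53249967: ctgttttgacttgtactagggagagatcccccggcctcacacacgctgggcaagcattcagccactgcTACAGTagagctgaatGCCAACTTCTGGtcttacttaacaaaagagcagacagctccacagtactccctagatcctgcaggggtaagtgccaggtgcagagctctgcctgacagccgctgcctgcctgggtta

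The region near *Tdpoz5* had 1 TAATTA, the one near *Fbxw11* 1 CTCF core and the one near *Hspa4* 1 CTCF core and 1 ACTGTA.

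The deposited lists give the height of each peak as a fold over the background of its own library and as the −log10 of a p-value. For each region and library the strongest overlapping peak was taken, with 0 where there was none, and values were ranked over all 140360 regions within each library, since the scale of each list is its own. The lists held 179462 to 198929 peaks and no read counts, so depth is unknown here. Normal scores of the ranks correlated at 0.90 to 0.91 between libraries of one condition and at 0.88 between conditions, as a description over regions. The targeted gene cannot be checked by a deletion in peak lists. The promoter of *Nr3c1* had a peak in every library, with folds of 7.04, 7.02 and 6.64 in GR-con and 6.28, 6.27 and 5.91 in GR-KO, and its normal score differed by less than its error (limma adjusted p = 0.835). That promoter peak says nothing about the recombined exons. A promoter region was found for all 34 astrocyte marker genes, for 15 of 20 neuronal, 11 of 15 oligodendrocyte lineage, 6 of 10 vascular and 3 of 13 microglial markers. The microglial genes *Cx3cr1*, *Csf1r*, *Aif1* and *Spi1* were among those without. With genes without one at 0, the median percentile averaged 67.3 in GR-con and 68.8 in GR-KO for astrocyte, 55.0 and 51.8 for neuronal, 49.6 and 43.9 for oligodendrocyte lineage and 35.0 and 29.7 for vascular markers, and was 0 for microglial markers. The part of other cells in the intergenic values was not tested.

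Most intergenic regions were open in both conditions. Of the 26572, 17618 (66.3%) had a peak in all 6 libraries, 2110 in 5, 1798 in 4, 2144 in 3 and 2902 in exactly 2. The last group sits at the limit of the rule, and its highest fold had a median of 3.20, against 2.68 for the 7349 regions at such distances with a peak in 1 list only and 11.3 for those in all 6. At the limits of distance, the 768 regions at 10 to 11 kb had a median mean fold of 6.31, against 5.11 for the 770 regions at 9 to 10 kb. The 654 regions at 95 to 100 kb had 5.11, and the 620 regions at 100 to 105 kb had 5.04.

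The median distance to the nearest coding TSS was 35449 bp, with an interquartile range from 20314 to 59119 bp. Of the regions 16123 (60.7%) lay upstream and 10449 downstream of that TSS, a split that the rule favours, since it removes the gene bodies downstream. Peaks became lower with distance, from a median mean fold of 5.98 at 10 to 20 kb (6498 regions) to 5.74 at 20 to 50 kb (11202 regions) and 5.19 at 50 to 100 kb (8872 regions). Over the same bins the share with a peak in all 6 libraries went from 68.0% to 66.9% and 64.3%. Noncoding genes were frequent neighbours. The midpoint of 3641 regions (13.7%) lay in the body of a long noncoding RNA gene and that of 555 in one of its exons, and 1584 regions (5.96%) lay within 1 kb of the start of some annotated transcript. In all, 16365 regions (61.6%) lay outside every annotated gene and at least 10 kb from every annotated start.

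In each of the 6 libraries the intergenic regions ranked below promoters and above gene body regions and regions beyond 100 kb. Over regions with a peak, their median percentile of fold was 60.7 to 61.9 in the 6 libraries. Regions within 1 kb of a coding TSS stood at 80.4 to 82.4, regions in coding gene bodies further from a start at 49.9 to 52.8, and regions over 100 kb from any coding TSS at 54.5 to 57.3. The intergenic regions were thus 20.1 ± 0.683 points (SD over 6 libraries) below promoters, 9.81 ± 0.618 points above gene bodies and 5.42 ± 0.876 points above the more remote regions. Their share with a peak averaged 85.1%, against 94.0% for promoters, 81.3% for gene bodies and 82.1% for the remote regions. Their peaks had a median width of 356 to 387 bp, against 742 to 803 bp at promoters, 319 to 343 bp in gene bodies and 337 to 358 bp in the remote regions. The differences in percentile and in width had the same sign in 6 of 6 libraries (exact sign-flip permutation test, two-sided, p = 0.031 each, also after adjustment over the 9 computed, the smallest that 6 libraries allow). The share with a peak is a description, since the rule kept regions by the presence of peaks. Regions outside gene bodies at 1 to 10 kb, which entered no test, are given beside them. Their median percentile of fold was 58.1 to 60.1 and their median width 317 to 341 bp, both under the intergenic values in all 6 libraries. Their share with a peak was 84.5 to 88.8% and their median percentile of −log10 p 62.9 to 64.0, both above the intergenic values (83.0 to 87.2% and 58.7 to 60.0) in all 6. Every class reached its height from the same libraries, so these are comparisons of classes and not of conditions.

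**Figure D1:**
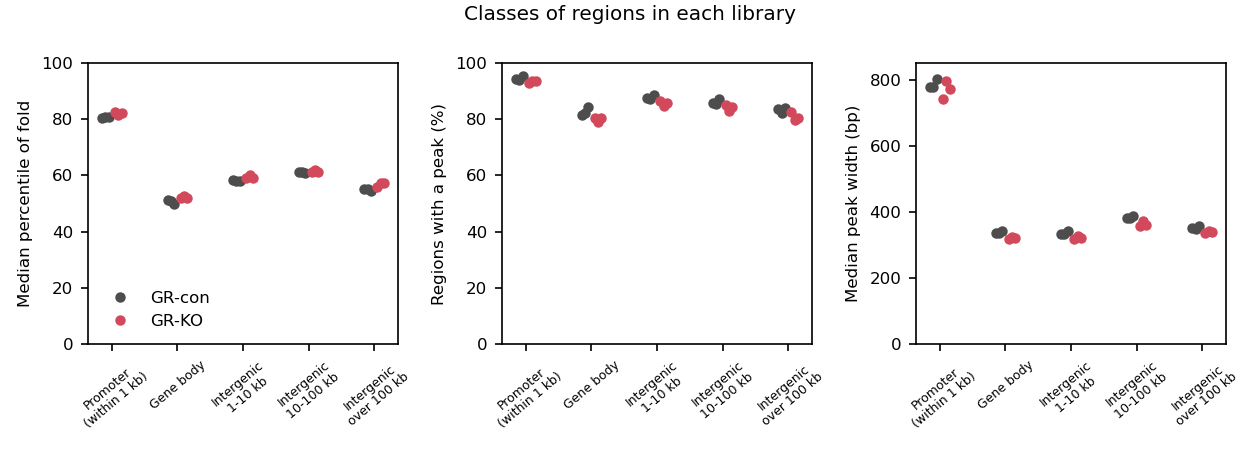
Each point is one library (GR-con grey, GR-KO red), and the panels give the median percentile of fold over regions with a peak, the share of the regions with a peak in % and the median peak width in bp, for 5 classes of regions. Intergenic regions at 10 to 100 kb sit at percentile 60.7 to 61.9, between promoters (80.4 to 82.4) and the gene body and remote classes (49.9 to 57.3), with regions at 1 to 10 kb at 58.1 to 60.1.

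Sequence composition set the intergenic regions apart from promoters and placed them near the other distal classes. Within 100 bp of the summit their median GC content was 50.2%, against 63.7% at promoters, 50.2% in gene bodies and 47.8% beyond 100 kb. The core of the CTCF site, the element bound by the insulator protein CTCF, stood in 3284 of them (12.4%), against 8.58% of all regions, 4.11% of promoters, 8.04% of gene body regions, 16.9% of regions at 1 to 10 kb and 6.05% of regions beyond 100 kb. Height went with it. Of the 6643 strongest intergenic regions 1496 (22.5%) held the core, and of the 6643 weakest 315 (4.74%). The half-site of nuclear factor I, a factor of glial cells, written TTGGCA, stood in 23.0% of intergenic regions and 21.9% of all regions, with 23.2% of the 6643 strongest and 21.3% of the 6643 weakest. The AP-1 site TGANTCA stood in 7.05% of intergenic regions, SOX ACAATG in 10.7%, TAATTA in 6.63%, E-box CAGATG in 15.9% and TEAD GGAATG in 11.8%, against 6.47%, 10.0%, 6.26%, 14.7% and 11.5% of all regions. The full palindrome of nuclear factor I, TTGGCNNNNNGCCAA, was in 15 intergenic regions, 0.0565% of them. The windows of these motifs can overlap, and a match is a run of letters, not a bound site.

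No difference passed the test at the highest intergenic regions. The 6 of highest mean score, at most 1 per nearest gene, were those near *Gm15319*, *Pdia4*, *Usp3*, *Igf2bp3*, *Rnf144b* and *Igsf21*. The region near *Gm15319* (chr8:20424263-20425146, inside the pseudogene 2610005L07Rik) had folds of 38.4, 36.3 and 37.0 in GR-con and 37.8, 38.7 and 37.2 in GR-KO. The region 12317 bp upstream of *Igsf21*, which encodes a synaptic adhesion protein (chr4:140258835-140259367), had 33.6, 34.4 and 34.1 in GR-con and 33.0, 34.8 and 33.9 in GR-KO. In both, the conditions overlapped. The other 4 ranged from 31.3 to 40.7 in GR-con and from 33.3 to 40.0 in GR-KO. Adjusted p was 0.850 or more for all 6 by the rank of fold and at least 0.12 by the rank of −log10 p (limma). By fold the SE was 0.779 to 2.57 in normal score, since normal scores spread widest at the top ranks. The test by fold could hardly pass there and does not show that these regions were unchanged. The summit window of the region near *Pdia4* (chr6:47748245-47748737) was 63.7% repeat-masked, and reads from near-identical copies could have been counted there.

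Intergenic regions gathered around some genes. The 26572 regions had 7461 nearest genes, with a median of 2 regions per gene, and 2443 genes had 1 region only. Genes with the most were *Gm11146* with 40, *Sox2* with 35, *Pou3f3* with 30, *Irf2bp2* with 28, *Bod1* and *Irs2* with 27 each, and *Pja1* and *Zfp217* with 26 each. *Sox2* and *Pou3f3* encode transcription factors of neural progenitors and glia, and *Irs2* an adaptor of the insulin receptor. Around *Sox2*, 18 of the 35 regions were open in all 6 libraries, and the mean fold had a median of 2.81 and a maximum of 15.1. Around *Irs2*, 17 of 27 were open in all 6 libraries, with a median of 5.09 and a maximum of 16.7. None of the regions near these 8 genes passed the test by the rank of fold. By the rank of −log10 p, 1 region was lower near each of *Pou3f3*, *Irf2bp2* and *Irs2*, and 1 was higher near each of *Gm11146*, *Sox2* and *Bod1*. Over all regions 1.12% were lower and 1.05% higher by that rank, and nothing is read from these counts. Genes with long intergenic space on both sides have room for more regions, so these counts are not densities.

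Values of the whole class in each library are given first, and 3 against 3 libraries cannot reach a p under 0.1. In GR-con 1, 2 and 3, 22832, 22663 and 23182 of them had a peak, and in GR-KO 1, 2 and 3, 22564, 22054 and 22391. The highest GR-KO count was below the lowest GR-con count, and the mean dropped by 556 regions, a description with no test, since the rule used the presence of peaks. As a share of all regions with a peak in the library, intergenic regions made up 19.1 ± 0.0924% in GR-con and 19.2 ± 0.0474% in GR-KO (SD, n = 3 each), and these values overlapped. Peaks at these regions had a median width of 381, 380 and 387 bp in GR-con and 356, 371 and 360 bp in GR-KO (exact permutation test, two-sided, p = 0.1). The median fold was 7.10 ± 0.293 in GR-con and 6.87 ± 0.123 in GR-KO (SD, n = 3 each, exact permutation p = 0.3). The median −log10 p was 28.2 ± 0.206 in GR-con and 25.8 ± 0.616 in GR-KO (SD, n = 3 each, exact permutation p = 0.1). Over the 8 such values computed, the adjusted p was 0.133 at the lowest. By rank the heights went the other way. The median percentile of fold at intergenic regions with a peak was 61.2, 61.2 and 60.7 in GR-con and 61.3, 61.9 and 61.3 in GR-KO (exact permutation p = 0.1). Narrower peaks were also seen in gene bodies and beyond 100 kb, and a lower −log10 p in gene bodies. In gene bodies the median width was 335, 337 and 343 bp in GR-con and 319, 325 and 322 bp in GR-KO, and the median −log10 p 18.8, 18.6 and 17.9 and 17.2, 17.7 and 16.8. Beyond 100 kb the median width was 351, 349 and 357.5 bp and 337, 341 and 339 bp. Fewer open cells and less open chromatin per cell cannot be told apart in pooled nuclei.

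Single regions did change. By the rank of fold, limma with adjustment over all 140360 regions called 78 intergenic regions lower and 24 higher in GR-KO (adjusted p under 0.05). That is 0.294% and 0.0903% of the 26572, against 0.214% lower and 0.11% higher over all regions. By the rank of −log10 p, which also rises with peak width and depth, 341 were lower (1.28%) and 278 higher (1.05%), against 1.12% and 1.05% over all regions. Of the 78 lower regions 27 had peaks in GR-con alone, and of the 24 higher regions 7 in GR-KO alone. Those regions met the rule through the condition where they are high, so they had to differ. A fit to regions with a peak in all 6 libraries called 55 intergenic regions lower and 34 higher. Of the 78 called lower by fold, 76 were also lower by −log10 p, and of the 24 called higher 20 were higher. Regions lower by fold made up 0.0616% of promoter regions, 0.189% of gene body regions and 0.363% of regions beyond 100 kb. Among intergenic regions the share was 0.215% at 10 to 20 kb, 0.312% at 20 to 50 kb and 0.327% at 50 to 100 kb. The median difference of normal scores over all intergenic regions was -0.000524, against 0.0163 over all 140360 regions. Groups that did not overlap were more frequent than calls. Every GR-KO fold was below every GR-con fold at 2962 intergenic regions (11.1%, against 9.8% of all regions), and above at 1651 (6.21%, against 6.67%). Leaving out each of the 6 libraries in turn left 0 to 8 lower and 0 to 2 higher calls by fold, and 70 to 194 lower and 48 to 89 higher calls by −log10 p.

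The 6 intergenic regions of smallest p in the lower direction fell by between 0.70 and 1.89 in normal score, and in each of them the conditions did not overlap. The region 59590 bp downstream of *Lipg*, which encodes endothelial lipase (chr18:74901421-74901924), had folds of 13.2, 12.99 and 11.9 in GR-con and 3.79, 3.79 and 3.55 in GR-KO (difference in normal score -1.10, SE 0.0854, limma adjusted p = 0.0075). The region 84817 bp downstream of *Impad1*, a phosphatase of the Golgi (chr4:4708146-4708930), had 18.3, 16.5 and 14.1 in GR-con and 5.24, 4.73 and 4.12 in GR-KO (-1.19, SE 0.098, adjusted p = 0.00881). The region 23839 bp upstream of *Fam180a* (chr6:35349528-35350431) had 17.9, 17.6 and 13.9 in GR-con and 5.60, 4.54 and 5.80 in GR-KO (-1.09, SE 0.0976, adjusted p = 0.0115). All 3 kept a peak in every GR-KO library, at about the middle of that library's ranks, from percentile 37.0 to 56.1, where GR-con stood at 78.9 to 90.2. The region 28628 bp downstream of *Setmar* (chr6:108093438-108093908) had 9.27, 10.9 and 8.01 in GR-con and no peak in any GR-KO library (-1.89), and since it met the rule through GR-con alone its difference is given as a description. The region 14594 bp downstream of *Hemk1*, which encodes a methyltransferase of translation release factors (chr9:107323440-107324035), had 17.6, 15.9 and 13.4 in GR-con and 5.60, 5.87 and 4.49 in GR-KO (-1.01, SE 0.0989, adjusted p = 0.0167). The region 80887 bp upstream of *Ncam1*, the neural cell adhesion molecule (chr9:49879510-49880114), had 16.1, 17.2 and 15.9 in GR-con and 8.13, 9.09 and 7.86 in GR-KO (-0.70, SE 0.0684, adjusted p = 0.0167). Of these 6, those near *Fam180a*, *Setmar* and *Hemk1* held the GR motif, those near *Lipg* and *Ncam1* only its half-site and that near *Impad1* neither. The 5 with peaks in both conditions were also lower by the rank of −log10 p, with adjusted p from 1.08e-06 to 0.00224. Over the alternatives run for named regions, the adjusted p of the 6 ranged from 1.08e-06 to 0.161.

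**Figure D2:**
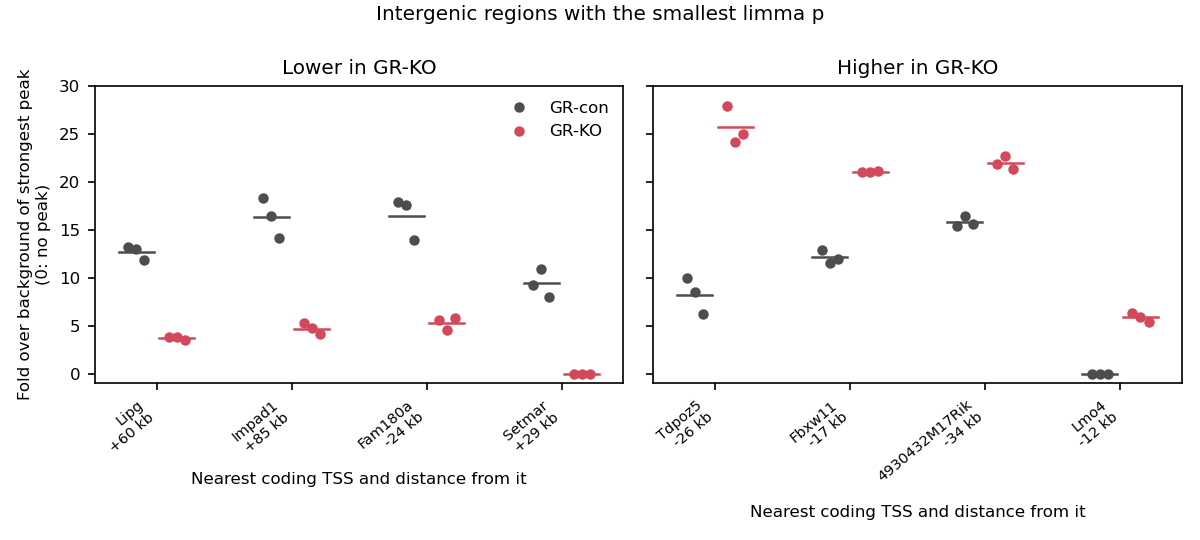
Points give the fold over background of the strongest peak in each library (GR-con grey, GR-KO red, 0 where there was no peak) and bars the mean of 3 libraries, for the 4 intergenic regions of smallest p in each direction, named by the nearest coding gene and the distance from its TSS. Near *Setmar* the 3 GR-KO libraries lie at 0, and near *Tdpoz5* they lie at 24.2 to 27.9 against 6.26 to 10.0 in GR-con.

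In the higher direction 5 of the 6 regions of smallest p are described, and they were of 2 kinds. Near *Tdpoz5*, *Fbxw11* and *4930432M17Rik* a peak of GR-con rose, and near *Lmo4* and *Foxc1* a peak was present in GR-KO alone. The region 26078 bp upstream of *Tdpoz5*, a gene of the TD and POZ domain family (chr3:93986975-93987808), had folds of 10.0, 8.47 and 6.26 in GR-con and 27.9, 24.2 and 25.0 in GR-KO (difference in normal score 1.79, SE 0.132, limma adjusted p = 0.00748). Its −log10 p went from 37.9, 29.3 and 19.6 to 180, 149 and 149 (adjusted p = 7.26e-07 by that rank). The region 16851 bp upstream of *Fbxw11*, a substrate receptor of an SCF ubiquitin ligase (chr11:32625715-32626030), had 12.9, 11.6 and 11.9 in GR-con and 21.1, 21 and 21.1 in GR-KO (0.84, SE 0.0659, adjusted p = 0.0075). The region 34074 bp upstream of *4930432M17Rik*, inside the long noncoding RNA gene A730020M07Rik (chr3:121636295-121637081), had 15.4, 16.5 and 15.6 in GR-con and 21.8, 22.7 and 21.4 in GR-KO (0.61, SE 0.0733, adjusted p = 0.0251). These last 2 regions did not pass by the rank of −log10 p (adjusted p = 0.0633 and 0.477), and both held the CTCF core. *Lmo4* encodes a LIM-only cofactor of transcription and *Foxc1* a forkhead factor. The region 12389 bp upstream of *Lmo4* (chr3:144217408-144217809) had 6.32, 5.87 and 5.43 in GR-KO, and the region 48286 bp upstream of *Foxc1* (chr13:31758171-31758522) 5.06, 4.92 and 6.36. No GR-con library had a peak at either, and since both met the rule through GR-KO alone their differences are given as a description. Over the alternatives run for named regions, the adjusted p of these regions ranged from 7.26e-07 to 0.477.

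Peaks present in one condition alone were counted with no test. Of the intergenic regions 326 (1.23%, against 1.19% of all regions) had peaks in all 3 GR-con libraries and none in GR-KO, and 160 (0.602%, against 0.628%) had peaks in all 3 GR-KO libraries and none in GR-con. The 4 of highest fold among the 326 were those near *Setmar*, given above, *Tprg*, *Gmnc* and *Plekhg1*. The region 46911 bp upstream of *Tprg* (chr16:25239697-25240115) had folds of 7.56, 7.90 and 6.76 in GR-con. The region 66572 bp downstream of *Gmnc*, a regulator of multiciliated cells (chr16:26901491-26901854), had 7.18, 8.66 and 5.75. The region 49540 bp upstream of *Plekhg1*, a guanine nucleotide exchange factor (chr10:3690560-3691087), had 7.14, 7.02 and 5.48. All 3 had no peak in GR-KO, which is what chose them. In the other direction the 4 of highest fold included those near *Lmo4* and *Foxc1*, given above, and *Hspa4*, an HSP70 family chaperone (chr11:53249739-53250117, 50529 bp downstream), with 5.78, 3.79 and 7.86 in GR-KO. A missing peak says that none passed the limit of the list, not that the DNA was closed.

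The GR motif was frequent among the lower regions and absent from those called higher. It stood within 100 bp of the summit in 169 of the 26572 intergenic regions (0.636%, exact 95% interval 0.544 to 0.739%) and in 0.668% of all regions. Among those lower by fold it stood in 15 of 78 (19.2%, 11.2 to 29.7%), among those lower by −log10 p in 54 of 341 (15.8%, 12.1 to 20.2%), and among those with a peak in GR-con alone in 25 of 326 (7.67%, 5.02 to 11.1%). Some of these regions met the rule through GR-con alone. Over called regions with a peak in both conditions, a count chosen after seeing the data, the motif stood in 9 of 51 lower by fold (17.6%, 8.401 to 30.9%) and 42 of 286 lower by −log10 p (14.7%, 10.8 to 19.3%), against 128 of 24689 (0.518%) of all intergenic regions with a peak in both. None of the 24 regions higher by fold and none of the 278 higher by −log10 p held it, the latter with an upper limit of 1.32%. Of the 160 with a peak in GR-KO alone 1 did (0.625%). The half-site AGAACA, which stood in 18.7% of intergenic regions and 17.95% of all regions, was in 33 of 78 (42.3%) of those lower and 4 of 24 (16.7%, 4.74 to 37.4%) of those higher by fold. By −log10 p it was in 139 of 341 (40.8%) of those lower and 30 of 278 (10.8%) of those higher. The intervals cover counting error only. Leaving out one library at a time, the share of regions lower by −log10 p that held the motif was 19.6 to 31.4%. By fold, 1 lower call remained without GR-KO 1, which did not hold it, 8 without GR-KO 3, of which 1 did, and 0 without any of the other libraries, too few to read a share from.

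Taken as a set, the 169 intergenic regions with the GR motif near the summit stood lower in GR-KO than in GR-con. The window was centred on the summit of the peak of highest −log10 p in any library. Measured heights thus helped to set which matches counted, and the choice is not one by sequence alone. The 169 regions had a peak in 160, 158 and 153 cases in GR-con 1, 2 and 3, and in 117, 114 and 114 cases in GR-KO 1, 2 and 3. In percent that was 92.9 ± 2.13% and 68.0 ± 1.02% (SD, n = 3 each), but only 128 of the 169 had a peak in both conditions. Of the rest, 25 had peaks in every GR-con library alone, 1 in every GR-KO library alone and the others in 2 libraries of one condition. All of the rest met the rule through the condition where they are high, so they had to differ. Of the 128 with a peak in both conditions, 120, 124 and 122 had one in GR-con 1, 2 and 3 and 116, 113 and 113 in GR-KO 1, 2 and 3 (95.3 ± 1.56% and 89.1 ± 1.35%). The 24561 without the motif and with a peak in both stood at 89.2 ± 0.978% and 88.2 ± 0.9502%. At the 95 with a peak in all 6 libraries the median percentile was 76.6, 74.8 and 72.4 in GR-con and 67.9, 64.5 and 65.2 in GR-KO, with no overlap between conditions. At the 17523 without the motif and with a peak in all 6 it was 70.2 ± 0.170 and 69.8 ± 0.0784. Every GR-KO fold lay below every GR-con fold at 41 of the 95 (43.2%) and above at 4 (4.21%). Over all 169, the median percentile was 55.1, 54.0 and 51.7 in GR-con and 40.0, 40.7 and 37.0 in GR-KO. The median difference of normal scores was -0.36 over the 169 and -0.000524 over all intergenic regions. It was smaller over the 128 with a peak in both conditions (-0.223, against 0.00396 without the motif). Over the 95 with a peak in all 6 libraries it was -0.142, against -0.00321 without the motif. Of the 169 regions, 15 were called lower and 0 higher by fold and 54 lower and 0 higher by −log10 p. Over all regions 0.214% were lower and 0.11% higher by fold, and 1.12% lower and 1.05% higher by −log10 p. At 80 of the 169 (47.3%) every GR-KO fold lay below every GR-con fold, and at 6 (3.55%) above. Over all regions these shares were 9.8% and 6.67%, and the 169 include the regions with peaks in one condition alone. Over the whole series 262 of 938 regions with the motif were lower by −log10 p, with a median difference of -0.37 by fold. The 5 intergenic regions of smallest p with the motif were those near *Fam180a*, *Setmar* and *Hemk1*, given above, and those near *AU015836* and *Adra2a*. The region 42895 bp downstream of *AU015836* (chrX:94012195-94013187) had folds of 19.4, 18 and 15.9 in GR-con and 9.57, 8.33 and 8.05 in GR-KO (difference in normal score -0.80, SE 0.0793, limma adjusted p = 0.0167). The region 97993 bp downstream of *Adra2a* (chr19:54142910-54143596) had 22.7, 24.1 and 17.2 in GR-con and 7.95, 7 and 6.36 in GR-KO (-1.33, SE 0.137, adjusted p = 0.0182). Neither of these 2 regions overlapped between conditions.

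**Figure D3:**
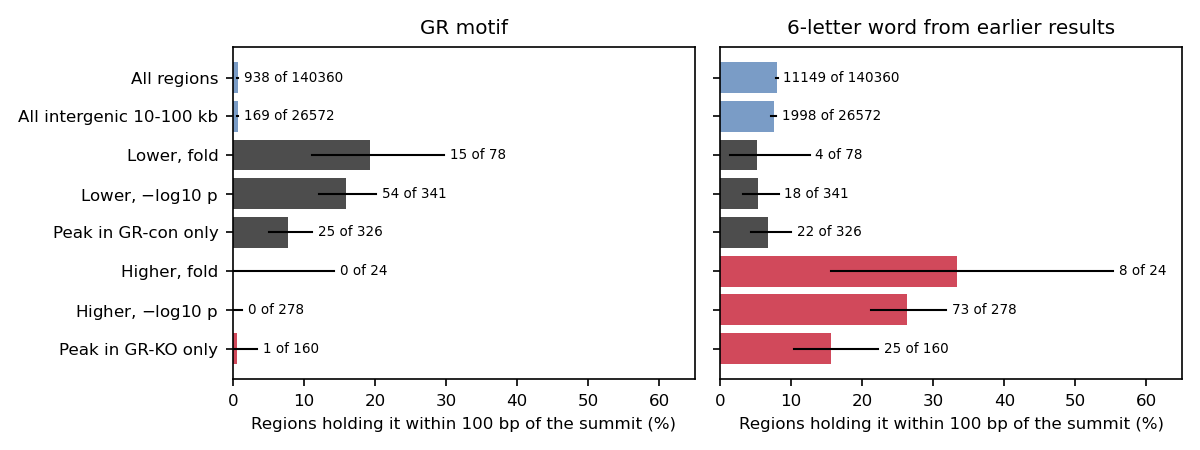
Bars give the share of regions that held the GR motif (left) or the word ACTGTA (right) within 100 bp of the summit, in %, with exact 95% intervals as lines and the counts beside them. Among intergenic regions lower in GR-KO the GR motif stood in 19.2% (fold) and 15.8% (−log10 p), against 0.636% of all intergenic regions and 0 of those higher.

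The motif lay close to the summit. In 50-bp bins of the distance between its centre and the summit, 23 and 21 of the 341 regions lower by −log10 p had it in the bins on either side of the summit (6.74% and 6.16%). The next bins outward held it in 2.05% and 0.880% of these regions. Over all intergenic regions the 2 inner bins held it in 0.226% and 0.173%. Among the 278 regions higher by −log10 p a single one had the motif within 250 bp, in the outermost bin.

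**Figure D4:**
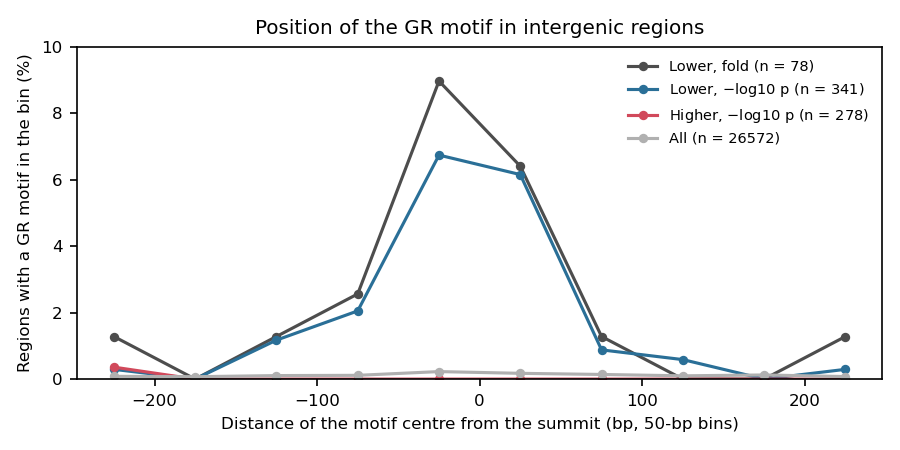
The x axis gives the distance of the GR motif's centre from the summit in bp, in 50-bp bins, and the y axis the share of regions with a motif in the bin in %, for intergenic regions lower by fold (n = 78), lower by −log10 p (n = 341), higher by −log10 p (n = 278) and all (n = 26572). The lower regions peak beside the summit, at 8.97% and 6.74% in the bin just before it, and the other lines stay under 0.4%.

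The word ACTGTA, taken from earlier results, is given as a description. It stood in 1998 intergenic regions (7.52%) and in 7.94% of all regions. It was in 8 of the 24 higher by fold (33.3%, exact 95% interval 15.6 to 55.3%) and in 73 of the 278 higher by −log10 p (26.3%, 21.2 to 31.8%). Among the lower regions it was in 4 of 78 (5.13%) and 18 of 341 (5.28%). The word had been picked in earlier work on these same libraries for its frequency in regions higher in GR-KO, so these shares are not independent evidence of its direction. Over the 1998 regions the median percentile of fold was 49.2, 48.2 and 48.4 in GR-con and 51.9, 52.8 and 51.8 in GR-KO, so the groups did not overlap. Over the 24574 intergenic regions without the word it was 54.0 to 55.1 in GR-con and 53.8 to 54.1 in GR-KO. The nuclear factor I half-site was in 97 of the 278 regions higher by −log10 p (34.9%) and in 96 of the 341 lower (28.2%), against 23.0% of all intergenic regions. The CTCF core was less frequent than the 12.4% of all intergenic regions among those lower by −log10 p (5.87%, 3.62 to 8.91%) and among those higher by that rank (2.16%, 0.796 to 4.64%). By fold it was in 5 of the 24 higher (20.8%) and 4 of the 78 lower (5.13%). Over the 3284 regions with the core the median difference by fold was -0.0564, against -0.000524 over all intergenic regions. Every GR-KO fold lay below every GR-con fold at 13.8% of these and above at 3.65%. Over all intergenic regions these shares were 11.1% and 6.21%, and over all regions 9.8% and 6.67%.

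Intergenic regions near genes linked to GR were read from the same fit. Genes that the study names as regulated or bound by GR (15, of which 11 had a region nearest to them) had 52 regions. The study names *Cables1* for GR binding, and *Adamts5* and *Adamts9* as genes that rise without astrocyte GR, so the list mixes directions. Of the 52 regions 1 was lower and 0 were higher by fold, and 4 were lower and 1 higher by −log10 p. Classic glucocorticoid-inducible genes (22, of which 15 had a region) had 123 regions, of which 0 were lower and 1 higher by fold, and 10 were lower and 1 higher by −log10 p. In percent the lower calls by −log10 p were 7.69% and 8.13%, against 1.28% of all intergenic regions and 1.12% of all regions. The median difference by the rank of −log10 p was -0.0863 and -0.0543, against -0.00172 over all intergenic regions and 0.00552 over all regions. By the rank of fold it was smaller, at -0.0193 and -0.00574, against -0.000524 and 0.0163. The first list was chosen by the study on mice of this kind and is not independent evidence of its direction. Of the 144 regions near astrocyte markers 0 were called by fold, and 1 was lower and 4 higher by −log10 p (0.694% and 2.78%, against 1.12% and 1.05% of all regions). Near neuronal markers 0 of 39 were lower and 1 was higher by −log10 p, near oligodendrocyte lineage markers 0 of 55 and 1, and near microglial (6 regions) and vascular markers (19 regions) none.

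The single intergenic region nearest *Etnppl*, a gene of astrocytes that encodes ethanolamine-phosphate phospho-lyase, was among the called ones. It lay 23187 bp downstream of the TSS and past the end of the gene (chr3:130649335-130650078). Its folds were 19.1, 23.4 and 15.4 in GR-con and 5.42, 6.44 and 8.23 in GR-KO (difference in normal score -1.18, SE 0.165, limma adjusted p = 0.0349), and the groups did not overlap. Its −log10 p was 212, 291 and 124 in GR-con and 14.6, 18.8 and 28.2 in GR-KO (adjusted p = 2.37e-06 by that rank). The summit window held the half-site AGAACA and not the full motif. A second called region lay 22081 bp further on, nearest *Ostc*, a subunit of the oligosaccharyltransferase (chr3:130671337-130672239). Its fold was 18.9, 15.7 and 16.3 in GR-con and 11.2, 10.2 and 10.3 in GR-KO (-0.55, SE 0.0831, adjusted p = 0.0425). One other pair of called intergenic regions of one direction lay within 100 kb of each other, 41727 bp apart, nearest *Jade2*, a scaffold of a histone acetyltransferase, and *Cdkn2aipnl*. The first (chr11:51874152-51875023) had 15.5, 17.2 and 12.9 in GR-con and 6.58, 5.60 and 6.27 in GR-KO and held the GR motif. The second (chr11:51915702-51916927) had 15.0, 12.1 and 12.6 in GR-con and 5.24, 4.92 and 5.05 in GR-KO and did not hold it. Their adjusted p was 0.0193 and 0.0183. Over the alternatives run for named regions, the adjusted p of these 4 regions ranged from 1.08e-06 to 0.171.

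Around *Tsc22d3*, which encodes the glucocorticoid-induced leucine zipper protein GILZ, 8 intergenic regions lay nearest, and neighbours only a few kilobases apart differed in direction. The region 39026 bp downstream (chrX:140503906-140504415) had folds of 7.65, 6.77 and 7.29 in GR-con and 13.9, 12.8 and 11.9 in GR-KO (0.56, SE 0.0767, limma adjusted p = 0.0349, and 0.234 by −log10 p). It held the CTCF core. The region 36986 bp downstream (chrX:140505843-140506559) had 5.19, 5.08 and 4.19 in GR-con and 0, 2.55 and 2.44 in GR-KO (-1.17 by the rank of −log10 p, adjusted p = 0.0113, and 0.143 by fold). The region 35338 bp downstream (chrX:140507658-140508040) had 4.11, 3.68 and 3.86 in GR-con and 2.24, 2.85 and 0 in GR-KO (-1.03 by −log10 p, adjusted p = 0.0243, and 0.318 by fold). Both of these held the GR motif. One more, 13950 bp downstream (chrX:140528838-140529635), had 9.43, 10.4 and 8.17 in GR-con and 4.51, 3.41 and 5.43 in GR-KO and held a half-site (-0.60 by −log10 p, adjusted p = 0.0272, and 0.0939 by fold). In all 4 regions the groups did not overlap.

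*Ddit4*, which encodes the mTOR inhibitor REDD1, had 9 intergenic regions nearest to it, 3 of them lower by −log10 p and none by fold. Over all regions 1.12% were lower by −log10 p and 0.214% by fold, and the called regions were named after their values were seen. The region 22550 bp upstream (chr10:59974126-59974641) held the GR motif. Its −log10 p was 109, 104 and 70.9 in GR-con and 16.9, 10.4 and 11.8 in GR-KO (-0.90, SE 0.0983, limma adjusted p = 1.73e-05), and its fold 7.46, 6.75 and 6.03 against 4.13, 3.22 and 3.44 (adjusted p = 0.115). The region 18301 bp upstream (chr10:59969587-59970683) had a −log10 p of 222, 284 and 189 in GR-con and 70.8, 88.2 and 80.1 in GR-KO (-0.61, adjusted p = 1.86e-05, and 0.372 by fold). The third, 30648 bp downstream (chr10:59920686-59921686), had 140, 142 and 155 against 90.6, 75.7 and 55.3 (-0.35, adjusted p = 0.00562, and 0.295 by fold). In all 3 the GR-KO values were below the GR-con values by both measures. *Errfi1* encodes an inhibitor of the EGF receptor. The region 34350 bp upstream of it (chr4:150819087-150820051) had folds of 13.4, 14.6 and 13.9 in GR-con and 5.78, 3.41 and 7.67 in GR-KO (adjusted p = 0.0756, and 0.00351 by −log10 p).

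**Figure D5:**
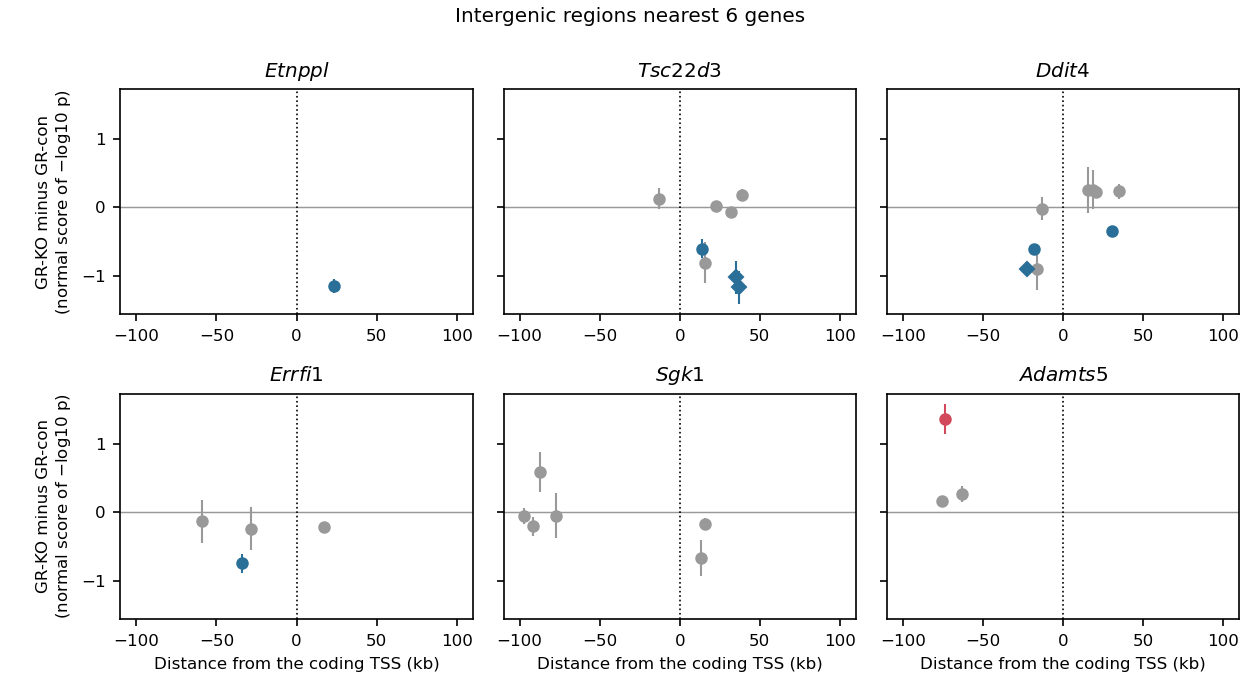
Each point is one intergenic region nearest the gene in the panel title, with its distance from the coding TSS in kb (x axis) and its difference in normal score of −log10 p between GR-KO and GR-con (y axis, bars are standard errors from limma). Blue points are lower and red points higher at adjusted p under 0.05, grey points are not called, diamonds hold the GR motif, and the called regions lie at -1.15 near *Etnppl*, from -1.17 to -0.60 near *Tsc22d3*, from -0.90 to -0.35 near *Ddit4*, at -0.75 near *Errfi1* and at 1.36 near *Adamts5*, with none called near *Sgk1*.

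The other regions called near listed genes differed by −log10 p more than by fold. Near *Klf9*, a Krüppel-like factor, the region 83387 bp upstream (chr19:23056809-23058868) held the GR motif and had a −log10 p of 219, 200 and 174 in GR-con and 84.9, 85.0 and 70.5 in GR-KO (-0.50, SE 0.0602, limma adjusted p = 4.31e-05). Its fold was 10.3, 9.89 and 9.73 against 9.14, 9.84 and 9.02 (adjusted p = 0.903), so that the groups overlapped by fold and not by −log10 p. Regions near *Pik3r1* (chr13:101811623-101812475) and *Rhob* (chr12:8454375-8455034) held the motif too, with adjusted p of 0.00438 and 0.0158 by −log10 p and 0.590 and 0.900 by fold. *Pik3r1* encodes a regulatory subunit of phosphoinositide 3-kinase and *Rhob* a small GTPase. Near *Ezr*, which encodes the membrane linker ezrin, 2 regions were lower by −log10 p (26330 and 79046 bp upstream, adjusted p = 0.000849 and 0.0256). Near the metallothionein gene *Mt1*, the region 10371 bp downstream (chr8:94189146-94190078) had a −log10 p of 551, 491 and 467 in GR-con and 422, 388 and 378 in GR-KO (-0.43, adjusted p = 0.0125). Its fold was 15.3, 14.1 and 13.3 against 15.4, 14.6 and 14.2 (0.05, adjusted p = 0.777), so the measures differed in sign there. In the higher direction were a region 73375 bp upstream of *Adamts5*, a protease that cleaves aggrecan, and one 25404 bp downstream of *Pdk4*, a kinase that inhibits pyruvate dehydrogenase. The *Adamts5* region (chr16:85974960-85975445) had folds of 3.16, 0 and 3.79 in GR-con and 9.75, 7.76 and 8.71 in GR-KO (adjusted p = 0.0942, and 0.00102 by −log10 p). The *Pdk4* region (chr6:5470433-5471281) had 12.6, 13.3 and 10.6 against 16.1, 18.3 and 15.5 (adjusted p = 0.0828, and 4.56e-05 by −log10 p). Both held ACTGTA, and in both the groups did not overlap. Over the alternatives run for named regions, the adjusted p of the 17 called regions near listed genes ranged from 2.37e-06 to 0.991.

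The highest intergenic region of each listed gene was mostly alike between conditions. Of the 11 genes named by the study with a region, the groups overlapped by fold at the highest region of 7, every GR-KO value was below GR-con at 2 and above at 2, and of the 15 classic genes these numbers were 11, 2 and 2. Besides *Etnppl*, the lower ones were near *Zbtb16*, a zinc-finger repressor (23.2 ± 0.464 in GR-con and 21.1 ± 0.621 in GR-KO), *Sgk1*, a glucocorticoid-induced kinase (12.1 ± 1.35 and 8.90 ± 0.710), and *Rhob* (14.1 ± 1.07 and 10.8 ± 1.57; mean fold ± SD, n = 3 each). Those that were higher were near *Cables1* (16.9 ± 0.706 and 18.6 ± 0.794), *Adamts9* (12.9 ± 0.791 and 15.1 ± 0.476), *Cebpb* (17.5 ± 0.673 and 19.1 ± 0.494) and *Pik3r1* (13.2 ± 0.895 and 16.2 ± 0.543). None of these 7 passed the test (limma adjusted p from 0.112 to 0.473). *Sgk1* had 6 intergenic regions, and at 4 of them every GR-KO fold was below every GR-con fold, with no call by either rank. Across all regions the groups did not overlap at 9.8% of regions in the lower and 6.67% in the higher direction.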

How the data were processed

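The 6 lists hold ATAC-seq peaks of V1 astrocyte nuclei, 3 GR-con and 3 GR-KO libraries grouped by the labels. The authors called peaks in each library with the ENCODE ATAC-seq pipeline. Each deposited list gives a capped score (not used), a fold ratio over local background, the −log10 p-value and the −log10 q-value of each peak. The build is mm10 per the labels, and 0 of 1116429 peaks ended beyond a GRCm38 chromosome. No read counts were used, so depth is unknown and the edgeR test of the study could not be repeated.

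Peaks were merged (1 bp overlap), kept with 2 or more lists, and classed by midpoint with GENCODE vM21. Within each library, the highest fold per region (0 without a peak) was ranked and the ranks made normal scores, which limma 3.58.1 (R 4.3.3) compared between conditions (variance trend, no block, Benjamini-Hochberg over all regions, adjusted p under 0.05). Score differences are in units of the normal score, GR-KO minus GR-con. The −log10 p was ranked likewise. Exact tests, exact (Clopper-Pearson) 95% intervals and motif searches used Python 3.11.15, scipy 1.17.1 and pysam 0.24.0. Motifs were searched on both strands within 100 bp of the summit of the region's peak of highest −log10 p in any library. The labels do not say whether libraries of a condition came from separate litters, so p-values measure the spread between pools.

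Named regions were the 6 of smallest p in each direction, the 4 of highest fold with peaks in one condition alone, the 6 of highest mean score, the 5 lower ones of smallest p with the GR motif, the highest region of each listed gene and the 8 genes with most regions. Regions near listed genes past the threshold by either rank, and called regions within 100 kb of each other, were named after their values were seen. A region that the rule names is not reported here. Members, lists, motifs and tests were chosen with earlier results of these data known. Alternatives were peaks with a q-value of 0.01 or less, lists cut to equal length, 3 or more lists, summit windows of 200 bp to each side, a stricter annotation, ranking by −log10 p, an adjusted p of 0.01, regions with a peak in all 6 libraries, no variance trend, each library left out in turn, and a replicate block. Named regions were read only under the q-value limit, equal list lengths, −log10 p ranks, the replicate block and each library left out.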

Additional observations from a re-analysis of the deposited data

How the results depend on the processing

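The 26572 intergenic regions became 16365 under the stricter annotation and 25576 to 25902 with a library left out, and 17618 of them had a peak in all 6 libraries. The 78 lower and 24 higher calls became 341 and 278 with −log10 p ranks, 229 and 132 with no variance trend, 2 and 2 at an adjusted p of 0.01, and 0 and 0 with a replicate block. With that replicate block 3786 intergenic regions had an unadjusted p under 0.05, against 3909 without it. Higher calls were 44 with 3 or more lists. Lower calls were 52 and on-off counts 216 and 96 under the stricter annotation. Leaving out each library gave 0 to 8 lower and 0 to 2 higher calls, 484 to 645 regions with a peak in GR-con alone and 285 to 388 in GR-KO alone. Ranked by −log10 p, calls were 70 to 194 lower and 48 to 89 higher without each library, and 208 and 130 with the replicate block (alternatives chosen after seeing the data). Without each library the motif share of lower regions was 0 to 12.5% by fold (of 1 and 8 regions) and 19.6 to 31.4% by −log10 p, and over regions with a peak in all 6 libraries 21.4% and 14.7%. The cause of these moves was not tested, beyond the fewer residual degrees of freedom with 5 libraries or a block.

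Whether replicate numbers pair the libraries is not known from the labels. Deviations of same-numbered libraries from their group means correlated at -0.00177 to 0.0332, against -0.0312 to 0.00388 for other numbers across conditions. Of the 6 libraries, 4 correlated best with their own number. The fits with and without the replicate block are therefore both given. The 9 class differences kept their sign in every alternative. With a library left out, which allows no exact test under 0.05, the difference in the share with a peak was -7.47 to -7.43 points against promoters and 3.07 to 3.36 against gene bodies. Of the 23 named regions called by fold, 20 were called by −log10 p and 0 in every leave-out, and none changed sign when a library was left out. Of the regions near listed genes called by either rank, the one near *Mt1* changed sign, to -0.43 by −log10 p. Other named regions, called by neither rank, also changed sign between the ranks, among them the highest ones near *Adamts5*, *Ezr*, *Gjb6*, *Klf9* and *Nfkbia*. Depth is unknown, so a missing peak cannot be told from a shallow library.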
